A study of Mus musculus with 14 samples.

Results

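Mitochondrial fatty acid oxidation in the liver of Snell dwarf mice was followed through 9 genes. They encode the carnitine palmitoyltransferases Cpt1a and Cpt2, the carnitine-acylcarnitine carrier Slc25a20, the acyl-CoA dehydrogenases Acadvl, Acadl, Acadm and Acads, the hydroxyacyl-CoA dehydrogenase Hadh and the enoyl-CoA isomerase Eci1. Every probe set whose only gene symbol in the array annotation was one of these names was taken, which gave 12 of the 12488 probe sets, for 9 of the 8252 genes that could be named this way. Of the 12, 9 probe sets for 8 genes passed a filter on low signal (a value over 184.8, the median of all signals, on 3 or more arrays), and each of the 9 lay above that level on all 14 arrays. Both probe sets of Acadvl and the second one of Cpt2 did not pass. No enzyme of ketone body synthesis is among the 9 genes, and ketogenesis was not analysed here.

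Long-chain fatty acids enter the mitochondrion as acylcarnitines. Cpt1a on the outer membrane makes them, in the step that malonyl-CoA inhibits and that sets the rate of hepatic oxidation, Slc25a20 carries them across the inner membrane, and Cpt2 returns the acyl group to coenzyme A. The acyl-CoA dehydrogenases then open each round of beta-oxidation, Acadvl for very long, Acadl for long, Acadm for medium and Acads for short chains, Hadh oxidises the 3-hydroxyacyl-CoA of shorter chains, and Eci1 moves double bonds of unsaturated chains so that they can be oxidised. In liver the pathway feeds ketone body synthesis during fasting, and many of its genes are targets of the fatty acid receptor PPAR-alpha.

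The RNA came from snap-frozen liver of long-lived dwarf mice with a mutated Pit-1 (the Snell model) and of wild type controls, with 1 animal per Affymetrix array: dwarf mice of 6 months (animals 83, 85, 87 and 89), wild type mice of 6 months (82, 84, 86 and 88), dwarf mice of 22 months (3, 4 and 8) and wild type mice of 22 months (1, 2 and 24). Pit-1 (Pou1f1) is a pituitary transcription factor needed for the cells that secrete thyrotropin, prolactin and growth hormone, and the mutation is carried by every tissue of the animal. The labels give neither the Pit-1 allele nor sex, strain background, feeding state or batch, and no probe set had Pou1f1 as its only symbol. Signals are MAS5 intensities on a linear scale, and the number of arrays limits the precision.

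The arrays differed in ways other than the group. The mean log2 ratio of 3' to 5' signal of the Gapdh and beta-actin controls, which rises when RNA is broken or labelled incompletely, was 0.185 ± 0.148 in dwarf mice of 22 months and 0.948 ± 0.168 in dwarf mice of 6 months (SD, n = 3 and 4, two-sided exact permutation test p = 0.0286, which is the lowest that 3 against 4 can give, or 0.114 adjusted over 16 tests of array measures), and 0.359 ± 0.108 in wild type mice of 22 months and 0.613 ± 0.49 in those of 6 months. Wild type animal 88 of 6 months stood apart: its ratio was -0.0412, against 0.517 to 1.02 in the other 3, and its 18S control signal was 272, against 52.6 to 105. The 18S signal was 242 to 543 in dwarf mice of 22 months and 59.8 to 149 in dwarf mice of 6 months. Wild type animal 2 of 22 months had the highest 18S signal of all, 2021, against 204 and 359 in the other 2 of its group. The median signal per array was 204 ± 14.3 in dwarf and 177 ± 3.93 in wild type mice at 6 months (SD, n = 4 each). The floor set on low signals was 54.9. No hepatocyte marker lay at it throughout a group, and the 3 bile duct markers with a probe set were at or below it on all arrays. As the RNA is from unsorted tissue, fewer cells of a type and less RNA per cell cannot be told apart.

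The promoters of 3 genes are shown because the results below turn on them. For Cpt2 and Slc25a20 the genotype difference passed the test for dependence on age. Acadm passed as higher in dwarf mice at both ages. Of these results, only that of Acadm at 22 months held under every alternative setting, as given below. Each window runs from 250 bases before to 50 bases after the transcription start, 5′ to 3′ (RefSeq, GRCm38.p6), and all 9 genes had one. Capitals mark the nuclear receptor half-site AGGNCA on either strand.
Cpt2 (chr4:107923540-107923839, minus strand): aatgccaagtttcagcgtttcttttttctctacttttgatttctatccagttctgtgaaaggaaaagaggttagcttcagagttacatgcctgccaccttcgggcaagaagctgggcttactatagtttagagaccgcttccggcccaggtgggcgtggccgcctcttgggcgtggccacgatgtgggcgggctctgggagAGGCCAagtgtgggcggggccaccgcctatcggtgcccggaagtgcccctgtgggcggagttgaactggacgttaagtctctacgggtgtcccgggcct
Slc25a20 (chr9:108661886-108662185, plus strand): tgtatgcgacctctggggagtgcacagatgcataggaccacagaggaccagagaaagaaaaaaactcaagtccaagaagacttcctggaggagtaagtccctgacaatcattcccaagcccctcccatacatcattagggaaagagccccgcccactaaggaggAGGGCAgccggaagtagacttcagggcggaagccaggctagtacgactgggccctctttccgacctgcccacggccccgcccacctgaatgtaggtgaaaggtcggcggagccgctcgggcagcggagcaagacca
Acadm (chr3:153944594-153944893, minus strand): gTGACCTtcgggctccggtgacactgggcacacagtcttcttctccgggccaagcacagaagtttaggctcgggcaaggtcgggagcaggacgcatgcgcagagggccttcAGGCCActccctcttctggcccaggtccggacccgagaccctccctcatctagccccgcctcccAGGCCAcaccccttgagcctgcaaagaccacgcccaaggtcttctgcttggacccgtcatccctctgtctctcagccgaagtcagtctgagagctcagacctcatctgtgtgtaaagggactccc
AGGNCA was found in 7 of the 9 promoters, and in 57.2% of all 32851 promoters of the same length. Its exact form AGGTCA was found in 3 of the 9 (Cpt1a, Acadvl and Acadm) and in 16.3% of all. A pair of AGGNCA in the same direction with 1 base between them, the arrangement that PPAR-alpha binds with its partner RXR, was in none of the 9 windows and in 0.381% of all. Cpt2 and Slc25a20 hold 1 AGGNCA each and Acadm holds 3, of which the first is the exact form on the other strand. These are letter matches in a short window and no measure of binding.

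At 6 months the dwarf liver had less transcript for 2 carnitine steps and more for 1 dehydrogenase. Differences are log2 fold changes of dwarf over wild type with the standard error from limma, and a gene was called at a Benjamini-Hochberg adjusted p under 0.05 over all 7227 probe sets tested. Of the 8 genes, 1 was called higher and 2 lower, where 6.3% and 7.09% of all 5473 tested genes were called higher and lower. That near-even split depends on the scaling: of all probe sets, 460 of 962 calls were higher as deposited, but 192 of 1036 when arrays were scaled to the same median, and then 0 of the 8 genes were called higher and 2 (Cpt2 and Slc25a20) lower. The median change of the 8 was 0.14, and that of all tested genes 0.09.

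Cpt2, which releases acyl-CoA inside the mitochondrion, had signals of 3475, 3558, 2902 and 3007 in dwarf mice, against 5309.8, 4334, 4961 and 6127 in wild type mice. Every dwarf animal lay below every wild type animal, and the gene was 1.6-fold lower (-0.67 ± 0.13, limma adjusted p = 0.00326). The carrier Slc25a20 had 1710.5, 1441, 2316 and 2105 in dwarf mice, against 2734, 2474, 2433 and 2944 in wild type mice, again with no overlap (1.42-fold lower, -0.50 ± 0.16, limma adjusted p = 0.0431). Acadm, the medium-chain dehydrogenase, had 13363, 12916, 13613 and 12762 in dwarf mice, against 10038, 8027, 8875 and 10142 in wild type mice. The groups did not overlap and Acadm was 1.43-fold higher (0.51 ± 0.11, limma adjusted p = 0.00741). Cpt1a, the gate of the pathway, spread widely in dwarf mice (5313, 6481, 8082 and 10330.4) and covered the range of wild type mice (6823, 5569, 6142 and 8529), with a difference of 0.13 ± 0.18 (95% interval -0.26 to 0.52).

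Acadl (0.29 ± 0.20), Eci1 (0.14 ± 0.17) and Hadh (-0.01 ± 0.12) did not pass. With arrays scaled to the same median the values of Eci1 and Cpt1a were both negative (-0.06 each), and that of Hadh was -0.21. The 2 tested probe sets of Acads had opposite signs, 0.36 ± 0.17 and -0.28 ± 0.33, and neither passed. The Hadh groups overlapped, 4204 to 4691 in dwarf mice and 3895 to 4893 in wild type mice. The Cpt2 call was kept under all 25 alternative settings. That on Acadm ended under the scaling to the same median (0.32, limma adjusted p = 0.126), where the median over the 7227 probe sets was -0.10, against 0.10 as deposited. The call on Slc25a20 ended under 16 of 25 settings (limma adjusted p up to 0.13), among them leaving out any wild type animal of 6 months, dwarf animal 83 or 85, any dwarf animal of 22 months or wild type animal 24. At this age 3 of 7 tested hepatocyte markers and 3 of 5 tested endothelial markers were also called higher in dwarf mice, as was 1 of 2 tested B and T cell markers. The share over all tested genes was 6.3%. The summed signal of the 7 hepatocyte markers was 154582 to 217261 in dwarf and 113649.7 to 141050.1 in wild type mice, and that of the 6 endothelial markers with a probe set 3943 to 5026 in dwarf and 3135 to 3946 in wild type mice. That of the 6 stellate cell and fibroblast markers was 7899 to 10447 in dwarf and 6623 to 7358 in wild type mice, with 4 of 4 tested markers positive and none called. Differences were positive for 6 of 7 tested hepatocyte markers (-0.39 to 0.59) and 4 of 5 tested endothelial markers (-0.17 to 0.97). A sum follows mainly the brightest markers of its list and does not show each of them. Marker calls and sums are given on the deposited scale only, not under the scaling to the same median. The part of these markers in the differences was not tested.

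**Figure D1:**
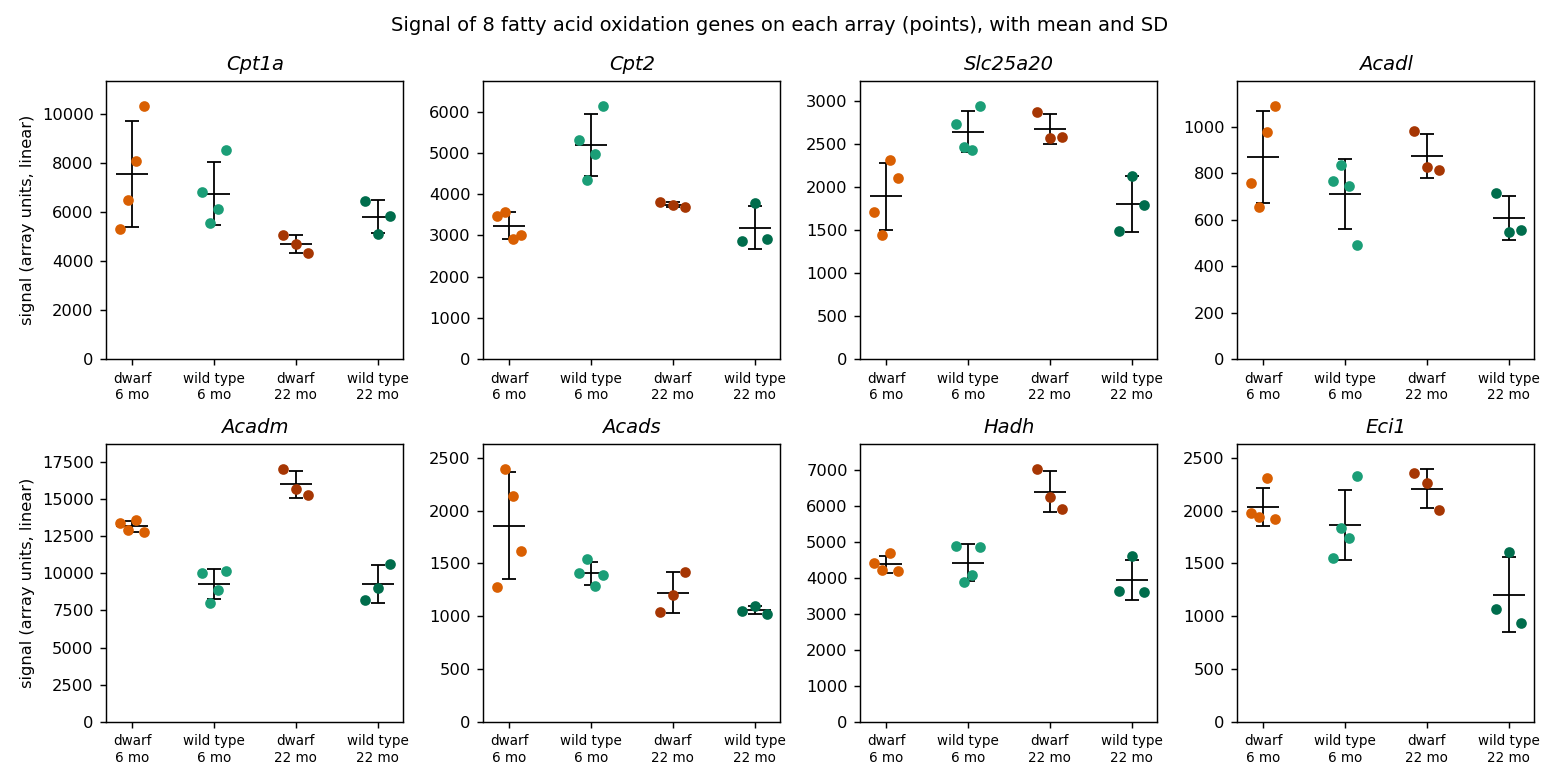
Signal (linear array units, vertical axis from 0) of the 8 tested genes on each of the 14 arrays, by group, with the group mean and SD as black bars. Acadm lies higher in dwarf mice at both ages, while Cpt2 and Slc25a20 lie lower in dwarf mice at 6 months, and Slc25a20 higher at 22 months.

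At 22 months 3 genes inside the beta-oxidation cycle were higher in dwarf mice, Acadm, Hadh and Eci1. No gene was called lower. The background was 1.39% of tested genes called higher and 1.48% called lower. The difference was positive for 7 of the 8 genes, with a median of 0.56 beside 0.0025 for all tested genes. The genes were chosen with earlier results of these samples known, so the count is not independent evidence of their direction.

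Acadm had signals of 17027, 15693 and 15292 in dwarf mice, against 8179, 9031 and 10643 in wild type mice. It was 1.73-fold higher (0.79 ± 0.13, limma adjusted p = 0.00179), with dwarf animals all above wild type animals, and the call was kept under all 25 settings. Hadh had 7039.8, 6247 and 5939 in dwarf mice, against 3629.6, 4604 and 3607 in wild type mice. It was 1.63-fold higher without overlap (0.71 ± 0.14, limma adjusted p = 0.00808), and lost the call only without dwarf animal 3 (limma adjusted p = 0.0622). Eci1 had 2360, 2264 and 2002 in dwarf mice, against 1068, 1605 and 938 in wild type mice. It was 1.88-fold higher without overlap (0.91 ± 0.19, limma adjusted p = 0.0132), and the call ended without dwarf animal 3 or 4 or wild type animal 1 or 24, and in a fit of these 6 arrays alone (limma adjusted p 0.0512 to 0.0819).

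None of the 3 genes of the carnitine shuttle was called at 22 months. Slc25a20 had 2877, 2571 and 2589 in dwarf mice, against 1487, 2131 and 1793 in wild type mice, and every dwarf value lay above every wild type value. The difference of 0.58 ± 0.18 did not pass (limma adjusted p = 0.108, 95% interval 0.20 to 0.97), though it did with array weights or the 18S signal as a covariate. Cpt2 had 3808, 3746 and 3682 in dwarf mice, a narrow range with its highest value just above that of the wild type mice (2850.1, 3788 and 2922), and differed by 0.25 ± 0.15 (95% interval -0.08 to 0.57). Cpt1a was the only one of the 8 with a negative difference (-0.30 ± 0.21, 95% interval -0.75 to 0.15): it had 5085, 4719.7 and 4334 in dwarf mice, just below the 6476, 5119 and 5846 of wild type mice. Acadl, the long-chain dehydrogenase, had 984, 826 and 816 in dwarf mice, against 716, 546 and 556 in wild type mice (0.54 ± 0.23, limma adjusted p = 0.306), without overlap. The probe sets of Acads differed by 0.19 ± 0.20 and 0.24 ± 0.38. No tested hepatocyte or endothelial marker was called at this age, and 1 of 4 tested macrophage markers was called lower, beside 1.48% of all tested genes. The summed signal of the 6 macrophage markers was 1786.5 to 2340.5 in dwarf and 2686 to 4208 in wild type mice, and that of the 6 endothelial markers 3188 to 3627 in dwarf and 3751 to 3951 in wild type mice. Differences were positive for 0 of 4 tested macrophage markers and 2 of 5 tested endothelial markers. Their part in the differences at 22 months was not tested.

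**Figure D2:**
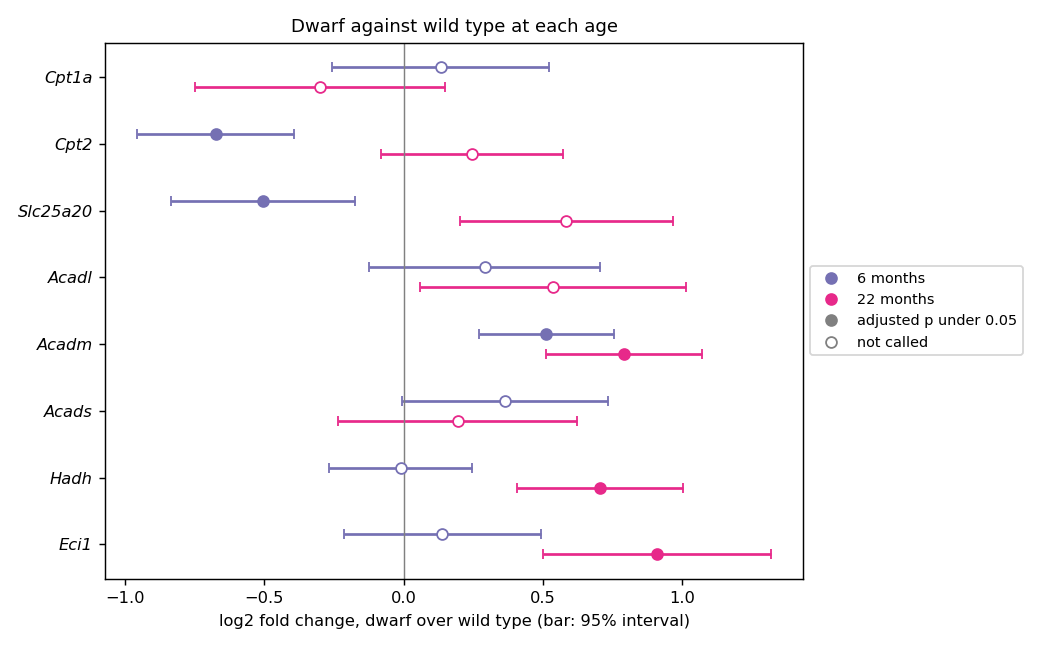
Log2 fold change of dwarf over wild type (horizontal axis, points with 95% intervals) for the 8 tested genes at 6 and at 22 months; filled points passed an adjusted p under 0.05. Cpt2 and Slc25a20 lie left of 0 at 6 months and right of 0 at 22 months, and Acadm lies right of 0 at both.

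Whether the genotype difference itself depended on age was tested as the difference at 22 months minus the difference at 6 months. Both genes that handle long-chain acylcarnitines at the inner membrane passed, and in both the value was positive, where 1.75% of tested genes were called higher and 0.585% lower. For Slc25a20 the difference moved by 1.09 ± 0.24 (95% interval 0.58 to 1.59, limma adjusted p = 0.0281), with means of 2679 ± 172 in dwarf and 1804 ± 322 in wild type mice of 22 months (SD, n = 3 each) and of 1893 ± 392 in dwarf and 2646 ± 239 in wild type mice of 6 months (SD, n = 4 each). For Cpt2 it moved by 0.92 ± 0.20 (95% interval 0.49 to 1.35, limma adjusted p = 0.0294), with means of 3745 ± 63 and 3187 ± 522 in dwarf and wild type mice of 22 months and of 3236 ± 329 and 5183 ± 748 in those of 6 months. Hadh (0.72 ± 0.19, limma adjusted p = 0.0611) and Eci1 (0.77 ± 0.25, limma adjusted p = 0.155) had positive values that did not pass. Acadm had 0.28 ± 0.17 (95% interval -0.09 to 0.65) and Cpt1a, with the opposite sign, -0.43 ± 0.28 (95% interval -1.03 to 0.16). Both calls were near the threshold: that of Cpt2 ended under 12 and that of Slc25a20 under 10 of 24 settings, with values of 0.75 to 1.12 and 0.95 to 1.28 and a limma adjusted p of at most 0.114 and 0.11. Leaving out wild type animal 82, 1 or 24, or any dwarf animal of 22 months, left neither of them called, without dwarf animal 87 or 89 Cpt2 was not called, and without wild type animal 2 all of Cpt2, Slc25a20, Hadh and Eci1 were called. Of all probe sets 111 of 158 calls were higher, and 155 of 173 with arrays scaled to the same median, where Hadh was called beside the 2.

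With age in dwarf mice, Hadh and Slc25a20 were called higher and Cpt1a lower, but these calls depended on the setting. Of the 8 genes, 2 were higher at 22 than at 6 months and 2 lower, where 7.93% of tested genes were called higher and 8.46% lower. This balance depends on the scaling: of all probe sets 574 of 1193 calls were higher as deposited, but 919 of 1162 when arrays were scaled to the same median. Then 3 of the 8 genes were called higher (Hadh, Slc25a20 and, with 0.48 and a limma adjusted p of 0.0306, Acadm) and 0 lower, as Cpt1a and Acads were no longer called. Hadh rose 1.46-fold, to 7039.8, 6247 and 5939 at 22 months, against 4421, 4219, 4691 and 4204 at 6 months (0.55 ± 0.13, limma adjusted p = 0.0128). Slc25a20 was 1.44-fold higher at 22 months without overlap (0.52 ± 0.17, limma adjusted p = 0.0444). Cpt1a fell to 5085, 4719.7 and 4334 at 22 months, against 5313, 6481, 8082 and 10330.4 at 6 months, so that all old dwarf animals lay below all young ones (1.56-fold lower, -0.64 ± 0.20, limma adjusted p = 0.039). Acads was called lower by the probe set that stands for it, but its other probe set was called higher, as described below. Acadm (0.28 ± 0.12), Cpt2 (0.22 ± 0.14), Eci1 (0.12 ± 0.18) and Acadl (0.03 ± 0.21) did not pass. The 3' to 5' ratio and the 18S signal also differed between these groups, as given above. With the ratio as a covariate none of the 8 genes was called and the values were 0.35 for Hadh, 0.32 for Slc25a20 and -0.94 for Cpt1a. With the 18S signal as a covariate 0 of the 8 were called. Without dwarf animal 3 none was called either (limma adjusted p = 0.0679 for Hadh), and 521 of all probe sets were called, against 1193 with it. Over all 25 settings the calls held in 22 for Hadh, 14 for Cpt1a (lost without dwarf animal 87, 89, 3, 4 or 8, limma adjusted p at most 0.155) and 10 for Slc25a20 (at most 0.482). The summed hepatocyte markers, of which 4 of 7 tested were called lower with age in dwarf mice, were 119738 to 138098 at 22 months and 154582 to 217261 at 6 months. Endothelial markers, 1 of 5 tested called lower, summed to 3188 to 3627 at 22 months and 3943 to 5026 at 6 months, and stellate cell and fibroblast markers, 1 of 4 called lower, to 6318 to 7686 at 22 months and 7899 to 10447 at 6 months. Changes were positive for 0 of 7 tested hepatocyte, 0 of 5 endothelial and 1 of 4 stellate cell and fibroblast markers. These marker values too are given on the deposited scale only. The part of these markers was not tested.

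With age in wild type mice 1 of the 8 genes was called, Cpt2, which was lower at 22 months. The background was 1.41% higher and 1.08% lower. Cpt2 had 2850.1, 3788 and 2922 at 22 months, against 5309.8, 4334, 4961 and 6127 at 6 months (1.63-fold lower without overlap, -0.70 ± 0.14, limma adjusted p = 0.0202). Slc25a20 (-0.56 ± 0.17, limma adjusted p = 0.086) and Eci1 (-0.65 ± 0.18, limma adjusted p = 0.0672) had negative values that did not pass. Acadm had almost the same mean at both ages (0.00 ± 0.12, 95% interval -0.26 to 0.26): its mean was 9285 ± 1252 at 22 months and 9271 ± 1009 at 6 months (SD, n = 3 and 4). The median change of the 8 genes was -0.31, against -0.02 over all tested genes. The Cpt2 call ended without wild type animal 1 or 24, with median scaling, without a variance trend, in a fit of the 7 arrays alone and with the 18S signal as a covariate, with a limma adjusted p of at most 0.0893. Without animal 88 the value was -0.62 (limma adjusted p = 0.0199). The 18S signal was 204 to 2021 at 22 months and 52.6 to 272 at 6 months. Of the markers, 1 of 4 tested for macrophages was called higher (4 of 4 positive) and 1 of 7 for hepatocytes lower, and their part was not tested.

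**Figure D3:**
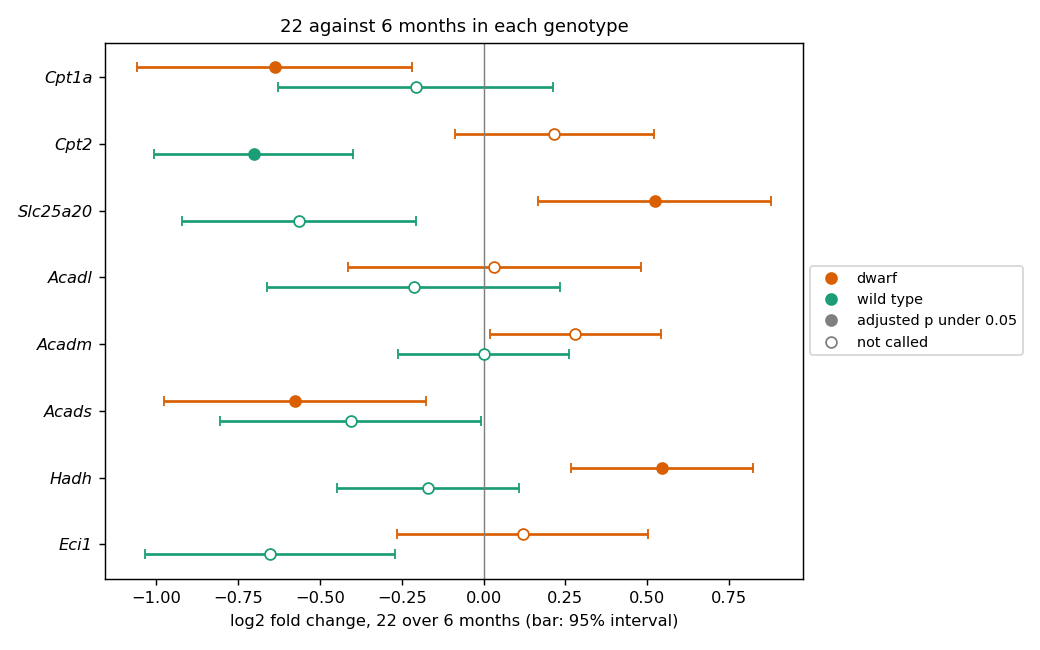
Log2 fold change of 22 over 6 months (horizontal axis, points with 95% intervals) for the 8 tested genes in dwarf and in wild type mice; filled points passed an adjusted p under 0.05. Cpt2, Slc25a20, Hadh and Eci1 lie further right in dwarf than in wild type mice, and Cpt1a lies left of 0 in both.

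The 2 probe sets of Acads, the short-chain dehydrogenase, went against each other with age in dwarf mice, and no direction is given for the gene. The set with the suffix _r_at, which stands for the gene in the counts because its mean is the higher, had 1036, 1201 and 1423 in dwarf mice of 22 months, against 1275, 2394, 2139 and 1617 in those of 6 months (-0.58 ± 0.19, limma adjusted p = 0.0482). The set with the suffix _at had 2096, 2594 and 1689.8 in dwarf mice of 22 months, against 1399, 707, 532 and 656 in those of 6 months (1.45 ± 0.36, limma adjusted p = 0.014). In wild type mice the changes were -0.41 ± 0.19 for the _r_at set and 0.94 ± 0.36 for the _at set, neither of which passed, though the _at set did without animal 88 (1.26, limma adjusted p = 0.0298). On the _at set, animal 88 had 1812, within the range of 1538 to 2594 of all 22-month arrays and above the 531 to 1046 of the other wild type mice of 6 months. With the 3' to 5' ratio as a covariate the change of the _at set with age in dwarf mice was 0.80 (limma adjusted p = 0.39). The _r suffix is the one Affymetrix gives to sets whose probes did not meet all its design rules. Neither probe set was called between genotypes at either age.

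**Figure D4:**
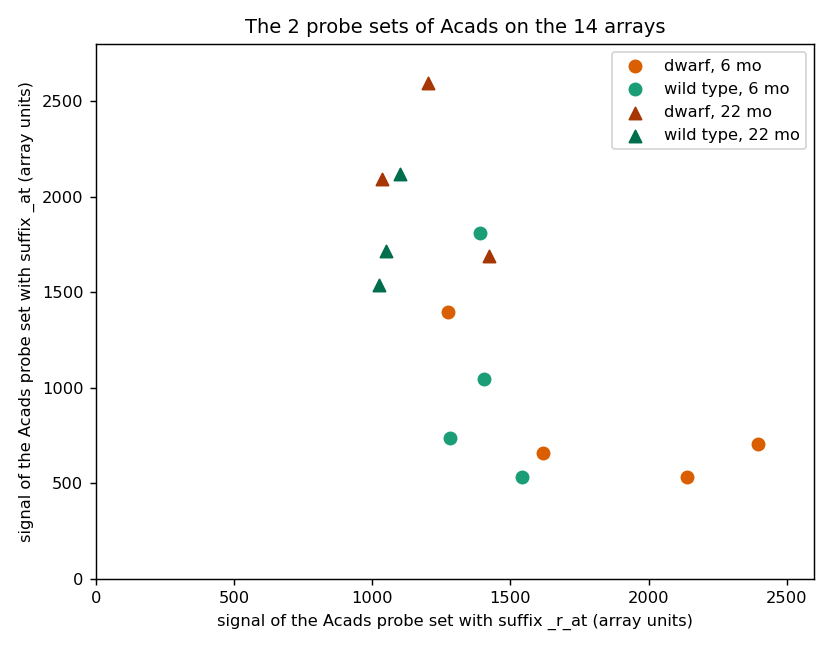
Signal of the 2 probe sets of Acads on each of the 14 arrays (linear array units, both axes from 0; horizontal axis, the _r_at set; vertical axis, the _at set), with circles for 6 months and triangles for 22 months. The 22-month arrays lie at 1538 or more on the _at set and at 1423 or less on the _r_at set, and 7 of the 8 arrays of 6 months lie at 1399 or less on the _at set.

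Acadvl, which encodes the enzyme that opens the oxidation of very long chains, gave no usable measure. Its dimmer probe set did not exceed the floor on any of 14 arrays (6.1 to 53.7), and the brighter one stayed at or under it on 11 of 14 (14.9 to 89.6). The 3 arrays above it were dwarf animals 89, 3 and 8. The second probe set of Cpt2 also lay at or below the floor throughout (6.4 to 32.2), beside 2850.1 to 6127 for the one that was tested.

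Other enzymes of mitochondrial beta-oxidation, of which 9 of 10 listed were tested, were not called between genotypes at 6 or 22 months (2 and 3 of 9 had an unadjusted limma p under 0.05). Their differences at 22 months were positive for 8 of 9, with a median of 0.27 and a range of -0.01 to 0.65. With age in dwarf mice 3 higher and 1 lower were called: Decr1, a reductase for unsaturated chains, was higher (1551 ± 167 at 22 months and 815 ± 135 at 6 months, 0.94 ± 0.15, adjusted p = 0.00173 by limma), as were Etfa, the electron acceptor of the acyl-CoA dehydrogenases (0.64 ± 0.15, adjusted p = 0.0116), and the hydroxyacyl-CoA dehydrogenase Hsd17b10 (0.74 ± 0.17, adjusted p = 0.0119), while Eci2, a second enoyl-CoA isomerase, was lower (-0.67 ± 0.20, adjusted p = 0.0366). Hsd17b10 was also called in the interaction (1.07 ± 0.25, adjusted p = 0.0339). Over all tested genes 7.93% were called higher and 8.46% lower with age in dwarf mice, and 1.75% higher in the interaction. In wild type mice none of the 9 was called with age, and 2 had an unadjusted limma p under 0.05.

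Of 8 tested genes of acyl-CoA supply and carnitine handling, 2 were lower in dwarf mice at 6 months: Fabp1, the fatty acid binding protein of hepatocytes (14113 ± 2887 in dwarf and 24092 ± 2453 in wild type mice, -0.79 ± 0.14, adjusted p = 0.00147 by limma), and the acyl-CoA synthetase Acsl5 (-0.74 ± 0.19, adjusted p = 0.0177). Both were higher at 22 than at 6 months in dwarf mice (0.51 ± 0.15, adjusted p = 0.0334 for Fabp1 and 0.92 ± 0.21, adjusted p = 0.00953 for Acsl5). Over all tested genes 7.09% were called lower at 6 months and 7.93% higher with age in dwarf mice. Between genotypes at 22 months 1.39% were called higher and 1.48% lower. At 22 months Crat, the carnitine acetyltransferase, was higher in dwarf mice (714 ± 46.4 in dwarf and 223 ± 146 in wild type mice, 2.03 ± 0.50, adjusted p = 0.0335), with 1 wild type array at 57.2, close to the floor. The synthetase Acsl4 was lower in dwarf mice at 22 months (-1.01 ± 0.26, adjusted p = 0.0454) and higher with age in wild type mice (1.03 ± 0.24, adjusted p = 0.0354). Of the other acyl-CoA dehydrogenases, Gcdh, which acts on glutaryl-CoA from lysine breakdown, was higher in dwarf mice at 22 months (0.79 ± 0.19, adjusted p = 0.028), lower with age in wild type mice (-0.76 ± 0.18, adjusted p = 0.0336) and called in the interaction (0.99 ± 0.25, adjusted p = 0.0499). It was 1 of the 2 tested of 4 listed, and the other was called in none of the 5 comparisons. Fabp1, Crat, Acsl4 and Gcdh have 2 probe sets each. Values are of the brightest tested set only, and the second set is not given here. Each change with age in dwarf mice given for these lists is between the groups whose 3' to 5' ratio and 18S signal differed, and their part in it was not tested for these genes.

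Of 6 tested regulators of the pathway, 1 was called in the 5 comparisons: Lpin1, a phosphatidate phosphatase that also acts as a coactivator of PPAR-alpha, was higher in dwarf mice at 6 months (1.05 ± 0.33, adjusted p = 0.0463 by limma), with overlapping groups. That call was near the threshold. Of all probe sets, 460 of 962 calls at 6 months were higher as deposited, but 192 of 1036 with arrays scaled to the same median. Lpin1 and the other listed genes are given on the deposited scale only. Among 10 tested general mitochondrial proteins, citrate synthase Cs (-0.63 ± 0.14, adjusted p = 0.00607), cytochrome c Cycs (-0.91 ± 0.17, adjusted p = 0.00229) and the succinate dehydrogenase subunit Sdha (-0.57 ± 0.12, adjusted p = 0.00641) were lower in dwarf mice at 6 months, beside Cpt2 and Slc25a20. The same 3 were higher with age in dwarf mice (0.46 for Cs, 0.71 for Cycs and 0.56 for Sdha), and Sdha was called in the interaction (0.89 ± 0.19, adjusted p = 0.0252). Over all tested genes 6.3% were called higher and 7.09% lower at 6 months, 7.93% higher with age in dwarf mice and 1.75% higher in the interaction. The groups compared for age in dwarf mice differed in 3' to 5' ratio and 18S signal, whose part was not tested for these genes. Of all probe sets 1193 were called in that comparison, against 51 with the ratio and 211 with the 18S signal as a covariate. For the interaction 158 were called, against 57 with the ratio as a covariate. At 22 months none of the 10 was called between genotypes, and 1 had an unadjusted limma p under 0.05. The median difference of the list was 0.13 at 6 months and 0.24 at 22 months, beside 0.14 and 0.56 for the 8 genes of fatty acid oxidation. At 6 months the median of the general list was thus positive although its 3 called genes were lower.

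**Figure D5:**
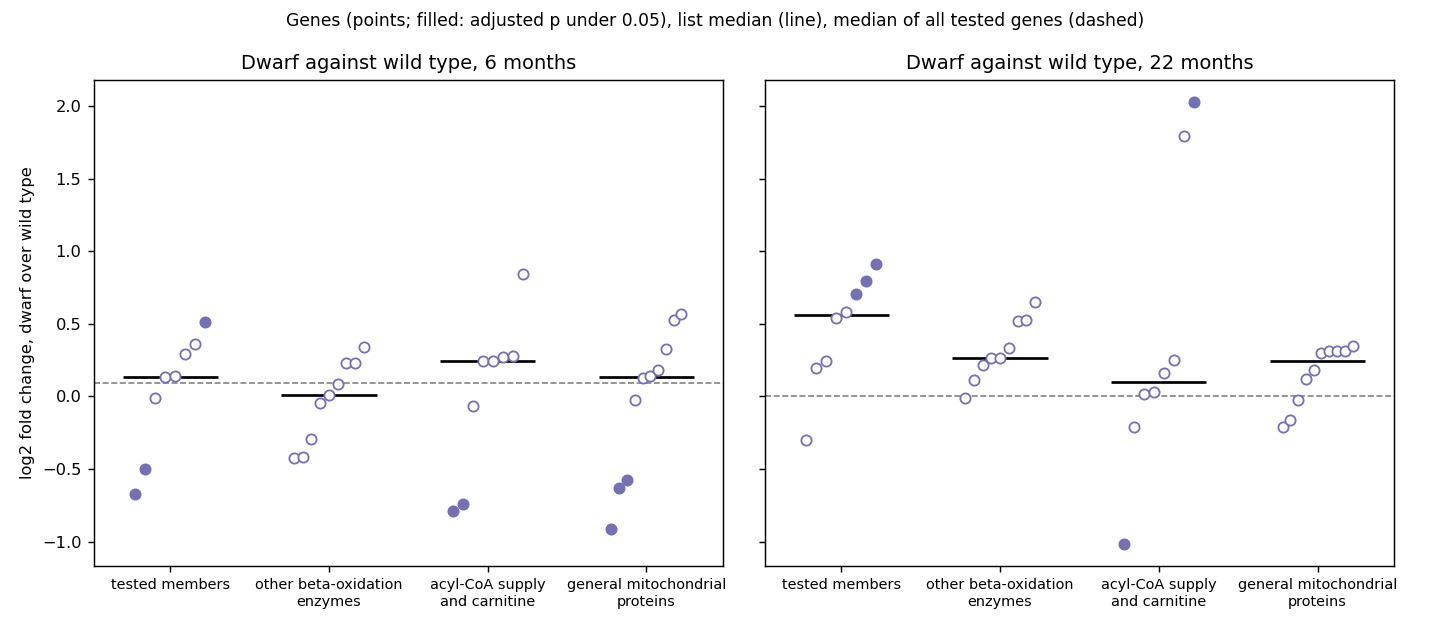
Log2 fold change of dwarf over wild type (vertical axis) at 6 months and at 22 months for the 8 tested genes and 3 other lists, 1 point per gene, filled where the adjusted p was under 0.05. Black lines are list medians and the dashed line is the median of all tested genes; the median of the 8 genes is 0.14 at 6 months and 0.56 at 22 months.

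The genes whose profile over the 14 arrays was most like that of Cpt1a and of Acadm were found among 5406 other tested genes by the root mean square difference of centred log2 signals. For Cpt1a they were Pnpla2, the adipose triglyceride lipase (0.193), Zfpm1 (0.202) and Map2k2 (0.215), where the median gene had 0.485. A gene that was flat over the arrays would have 0.337. Pnpla2 had 2701 ± 607 in dwarf and 2089 ± 160.3 in wild type mice of 6 months, and 1617 ± 92.2 in dwarf and 1696 ± 201 in wild type mice of 22 months. For Acadm they were Pipox, a peroxisomal oxidase of amino acid breakdown (0.164), Man2b1, lysosomal alpha-mannosidase (0.164), and the glutathione transferase Gsto1 (0.168), where the median gene had 0.503 and a flat gene would have 0.349. Pipox had 2868 ± 124 in dwarf and 2319.7 ± 299 in wild type mice of 6 months, and 3171 ± 459 in dwarf and 2314 ± 170.2 in wild type mice of 22 months. Neither Pnpla2 (limma adjusted p = 0.13 and 0.967) nor Pipox (limma adjusted p = 0.113 and 0.138) was called between genotypes at 6 or 22 months. Zfpm1 was called higher in dwarf mice at 6 months (0.57 ± 0.15, limma adjusted p = 0.0211) and Man2b1 at 22 months (0.76 ± 0.17, limma adjusted p = 0.0221). Map2k2 and Gsto1 were called at neither age. With age in dwarf mice Pnpla2 (-0.72 ± 0.16, limma adjusted p = 0.00861) and Zfpm1 (-0.89 ± 0.16, limma adjusted p = 0.00333) were called lower, as was Cpt1a. The genes were picked for their likeness, so these calls are no separate evidence.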

How the data were processed

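Liver total RNA of 14 mice was labelled with biotin and hybridised to Affymetrix arrays of 12488 probe sets, 1 mouse per array. Each deposited value is 1 linear signal intensity per probe set and array. The submitters' processing notes name MAS5; the software version, scaling target and detection calls are not given in the sources used here. The trimmed mean of every array (2% off each end) lay between 500.36 and 500.44, so values were used as deposited.

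A floor was put at 54.9, the 25th percentile of all signals pooled, 66 control probe sets were left out, and the 7227 others that exceeded 184.8, the overall median, on 3 or more arrays were tested. Of the 12488 probe sets, 10855 had 1 gene symbol, 396 several and 1237 none listed, and 10839 of the 10855 matched the reference by gene identifier. Where several probe sets of a gene were tested, the brightest on average stood for it (5473 genes). The log2 signals were fitted with limma (version 3.58.1, R version 4.3.3), giving every group its own mean over the 14 arrays and moderating variances along their trend with signal, with Benjamini-Hochberg adjustment over all probe sets in each of 5 comparisons. Named genes were the 9 genes, up to 3 called genes with the smallest p per pathway list and comparison, and the 3 genes most alike to Cpt1a and to Acadm. Members and lists were chosen with earlier results of these data known. Array measures were compared by exact permutation.

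Alternatives were quantile and median scaling, another floor (10th percentile), a pseudocount of 50, no filter or the 75th percentile, no variance trend, weights per array, a fit to only the groups compared, any probe set of a gene in place of the brightest, the 3' to 5' ratio or the 18S signal as a covariate, and leaving out each array.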

Additional observations from a re-analysis of the deposited data

Results flagged for a closer look

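In dwarf mice of 6 months, Eci1 was 2306 in animal 87, against 1919.6 to 1973 in the other 3, a gap wide enough for Dixon's test at 95%; 16 groups of 4 were tested this way, and chance flags about 1 in 20. The genotype difference of Cpt2 was 0.92 higher on the log2 scale at 22 than at 6 months and that of Slc25a20 was 1.09 higher, both by the test of the interaction.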

How the results depend on the processing

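Over the 8 tested genes, the second probe set of Acads, 5 comparisons and 25 settings, no called change reversed its direction. Of the 13 calls, 2 held under every setting (Acadm at 22 months and Cpt2 at 6 months) and 11 ended under at least 1. The number of the 8 genes called between genotypes was 3 at 6 months and 3 at 22 months. At 6 months it was 2 with quantile normalization, median scaling, no filter, no intensity trend, array weights, the compared groups alone or the 3' to 5' covariate. With median scaling 0 of these were higher. At 22 months it was 4 with array weights or the 18S covariate, and 2 in the compared groups alone. For the interaction 2 genes were called, against 0 with quantile normalization, 0 without a filter, 0 without an intensity trend and 0 with the 3' to 5' ratio as a covariate. With age in wild type mice 1 was called, against 0 with median scaling, 0 without a trend, 0 in the compared groups alone, 0 with the 18S covariate, and 2 with array weights or the filter at the 75th percentile. With age in dwarf mice 4 were called, against 1 without a filter, without a trend or in the compared groups alone, and 0 with either covariate. Leaving out 1 array gave 2 to 3 genes at 6 months, 1 to 3 at 22 months, 0 to 2 with age in wild type and 0 to 4 in dwarf mice, and 0 to 4 for the interaction.

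Of all 7227 probe sets, 962 were called at 6 months (630 in the compared groups alone), 212 at 22 months (442 with array weights), 180 with age in wild type mice (108 with median scaling, 102 without a filter, 90 without a trend, 472 with array weights, 76 in the compared groups alone and 9 with the 18S covariate), 1193 with age in dwarf mice (51 with the 3' to 5' and 211 with the 18S covariate) and 158 for the interaction (69 without a filter, 64 without a trend and 57 with the 3' to 5' covariate). Leaving out 1 array gave 711 to 1098 at 6 months, 127 to 241 at 22 months, 60 to 457 (457 without animal 88) with age in wild type and 521 to 1451 in dwarf mice, and 48 to 169 for the interaction. The cause of these shifts was not tested. No paired analysis was made, because the labels state no pairing of animals.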
